A study of Rattus norvegicus with 6 samples.

Results

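The proteasome is the protease that degrades proteins tagged with ubiquitin, and the 47 protein-coding genes examined here are its subunits, its assembly factors and its alternative caps in rat RA-FLS. RA-FLS are fibroblast-like synoviocytes of the rheumatoid joint, the mesenchymal cells of the synovial lining. The members were taken by name from the 34156 genes of the count table: all protein-coding genes named Psma to Psmg with a number, without the immunoproteasome subunits Psmb8, Psmb9 and Psmb10. Of these, 44 were among the 13614 genes that reached 10 counts in 3 or more libraries and were tested. Psma8, a testis form of an α subunit, Psmb11, the thymus form of a β subunit, and Psme1, which is taken up with the caps below, had 0 to 4 counts in every library and were not tested. The name rule also took in Psmc3ip and Psme3ip1, which encode partners of proteasome proteins or their namesakes, and Psma3l, a copy of Psma3 and the only Psma3 type gene among the members. These 3 genes are kept apart from the subunits below.

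The study compared 3 libraries of cells given 10 ng/mL TNF-α (TNF-α group) with 3 libraries of cells given 10 ng/mL TNF-α together with 80 μmol/L emodin (TNF-α+EMO group). Emodin (EMO) is an anthraquinone of rhubarb, and TNF-α is the inflammatory cytokine that drove the cells in both groups. Both groups are wild-type synoviocytes, with rheumatoid arthritis as disease state and day 5 as time in the labels, while the study's methods describe a shorter exposure. The cells were a purchased culture of synoviocytes, and no library without TNF-α was analysed here, so each value below is a difference within TNF-α-treated cells. The study's methods call the 3 libraries of a condition biological replicates, without saying whether they came from separate cultures, and p-values measure the spread between these libraries.

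The core particle is a barrel of stacked rings. The outer α rings, built from Psma subunits, gate the entrance, and the inner β rings, built from Psmb subunits, hold the cutting sites. The regulatory particle caps the barrel. Its base carries a ring of ATPases (Psmc) that unfold substrates, and its lid (Psmd) removes ubiquitin. Cells that receive interferon or TNF exchange the catalytic β subunits for immunoproteasome forms, and cells whose proteasome is inhibited raise the subunit genes together through the transcription factor encoded by Nfe2l1, which binds antioxidant response elements.

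Promoter sequence was available from RefSeq (build GRCr8, which is not the build of the count table, Rnor_6.0) for 41 of the 47 members, as windows from 250 bases before to 50 bases after the start of transcription. The core of the antioxidant response element, TGACNNNGC on either strand, was present in 7 of the 41 windows (17.1%), against 12.1% of all 33469 promoters in the table and 14.8% of the 9200 promoters of tested genes. In the part of the window nearest the start it was present in the same 7 members, against 6.76% and 8.37% of those promoters. Members that rose, such as Psmb6, held it, and so did Psmd1 and Psme4, which did not rise. These windows are shown so that the letters can be set beside the levels that follow, with the element in capitals, 5′ to 3′ on the strand of the gene.
Psmb6, chr10:55737848-55737887, plus strand: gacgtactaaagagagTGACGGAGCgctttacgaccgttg
Psmb2, chr5:144254974-144255014, plus strand: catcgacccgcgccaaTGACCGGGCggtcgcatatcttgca
Psmb5, chr15:32047415-32047455, minus strand: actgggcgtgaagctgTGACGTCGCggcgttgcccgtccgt
Psmd9, chr12:39018317-39018357, minus strand: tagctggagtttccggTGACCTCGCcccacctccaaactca
Psmd1, chr9:94157790-94157830, plus strand: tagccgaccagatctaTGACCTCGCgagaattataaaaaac
Psme4, chr14:108706572-108706612, plus strand: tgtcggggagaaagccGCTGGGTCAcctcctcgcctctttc

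The first bases of the elements lay 24, 68 and 60 bases before the start in Psmb6, Psmb2 and Psmb5. Psmd9 held a further copy, on the other strand, and Psmd1 a further copy after the start. The Psmd1 copy shown lies 165 bases before the start, and the copy after the start is the one that put Psmd1 among the 7 in the part of the window nearest the start. In the Psme4 window the element is on the strand opposite to the gene, and so reads as the reverse complement. The remaining member with the element is Psmd3, where it lies after the start. The median log2 fold change, TNF-α+EMO over TNF-α, was 0.60 over the 7 tested members with the element and 0.49 over the 32 tested members with a window but without it.

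A motif of ETS factors, CCGGAAG, differed more from its background. It was found on either strand in 17 of the 41 windows (41.5%), against 8.75% of all promoters and 18.4% of the promoters of tested genes. A median log2 fold change of 0.62 was found over the 16 tested members that held it and 0.26 over the 23 that did not. Psme3, Psmb4 and Psmd11, which rose, held it, and so did Psmb7, which was not called, and Psme4, which was called lower. Psmd8 and Psmb6, which rose most of all members, did not hold it. The windows of Psmb4, Psme3, Psmd11 and Psmb7 are shown with the motif or its reverse complement in capitals.
Psmb4, chr2:185134562-185134599, minus strand: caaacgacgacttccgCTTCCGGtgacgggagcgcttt
Psme3, chr10:86757889-86757927, plus strand: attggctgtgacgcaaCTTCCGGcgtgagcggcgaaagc
Psmd11, chr10:65932305-65932342, plus strand: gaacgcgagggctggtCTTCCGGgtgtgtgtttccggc
Psmb7, chr3:42827502-42827540, minus strand: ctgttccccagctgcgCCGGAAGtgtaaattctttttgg

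The GC box GGGCGG was in 30 of the 41 windows (73.2%), against 33.1% of all promoters and 63.6% of those of tested genes. The CCAAT box was in 20 (48.8%, against 37.5% and 38.5%) and the TATA box TATAAA in 4 (9.76%, against 14.2% and 6.51%). Over the whole window, members with the motif did not stand higher. The median log2 fold changes with and without it were 0.31 and 0.62 for GGGCGG, 0.44 and 0.60 for CCAAT, and 0.28 and 0.60 for TATAAA. For CCAAT this depended on the window. In the part nearest the start, the medians were 0.62 over 13 tested members with it and 0.39 over 26 without. For GGGCGG they were 0.26 and 0.61 there. All motifs were searched on both strands, and different motifs may overlap. These matches are descriptions of letters in a window, with no test, and no binding was measured.

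Most proteasome genes were higher in the TNF-α+EMO group, by small amounts. Of the 44 tested members, 32 were called higher (72.7%) and 4 lower (9.09%) at an adjusted p under 0.05 by edgeR, and 8 were not called. Over all tested genes, 39.4% were called higher and 41.4% lower, so the members' share of higher calls stood above the background and their share of lower calls below it. The members had a median log2 fold change of 0.49, a fold of 1.40, and −0.01 over all genes. Differentially expressed genes (DEGs), which also needed an absolute log2 fold change over 1, numbered 8 higher and 1 lower among the 44 tested members, against 19.5% higher and 27.8% lower over all genes. Unlike the share of higher calls, the members' share of higher DEGs did not stand above the background. In 31 members every TNF-α+EMO library lay above every TNF-α library, and in 6 every one lay below, against 40.3% and 42.5% of all genes. Together the members took 0.585% to 0.624% of all counts with TNF-α and 0.737% to 0.760% with TNF-α+EMO.

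**Figure D1:**
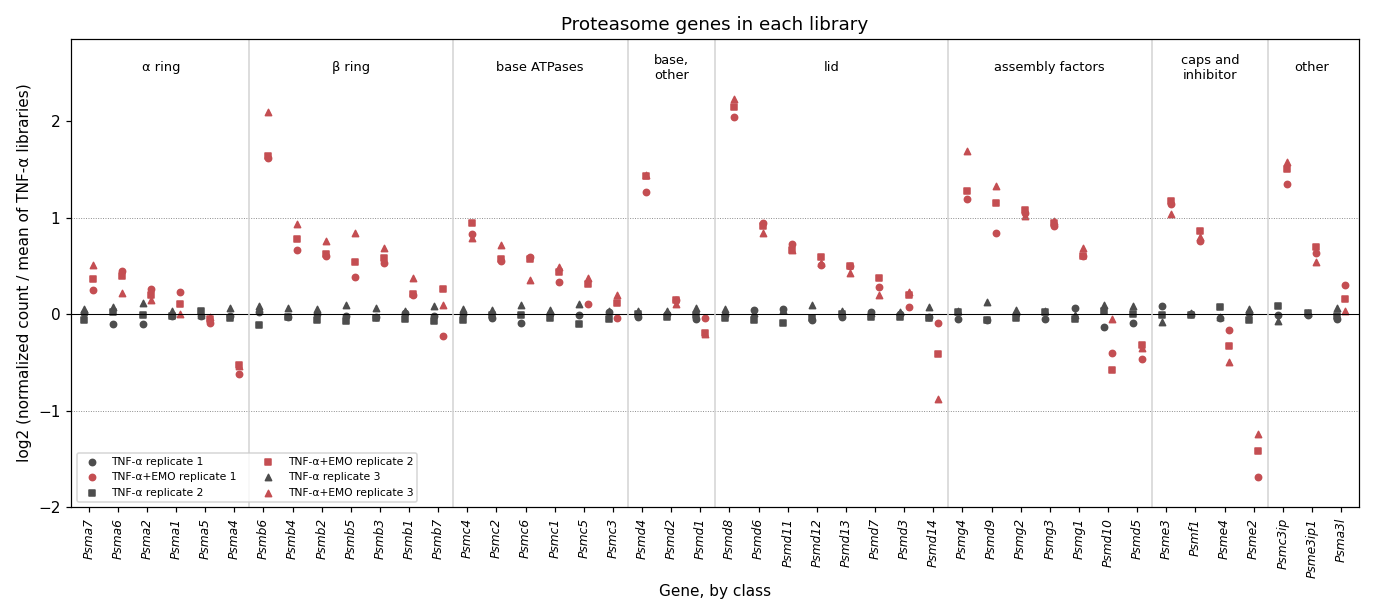
Normalized count of each of the 44 tested proteasome genes in each of the 6 libraries, as log2 of its ratio to the mean of the 3 TNF-α libraries (vertical axis), by class of subunit (horizontal axis). Grey symbols are TNF-α and red symbols TNF-α+EMO libraries, with 1 symbol shape per replicate and dotted lines at log2 ratios of −1 and 1. Psmd8, Psmb6, Psmc3ip, Psmg4 and Psmd4 stand highest and Psme2 lowest, and the 6 α subunits stay close to 0 apart from Psma4.

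The libraries held 16813322 to 17794455 counts. TNF-α+EMO replicate 3 stood apart from its group: the chi-square per degree of freedom against the other TNF-α+EMO libraries was 24.99 and 16.01, against 6.66 between those other libraries and 4.75 to 5.87 between TNF-α libraries. Without it, all 32 members were again among those called higher, which then numbered 34, and 5 were called lower. The share of counts from the mitochondrial genome was 3.35% to 3.58% with TNF-α and 0.363% to 0.399% with TNF-α+EMO. Of 10 synoviocyte markers in the table, 7 were tested and all 7 were lower with EMO. The summed normalized count of the 10 ranged from 200432 to 220552 with TNF-α and from 35127 to 37808 with TNF-α+EMO. Most of the sum with TNF-α+EMO came from Vim, which went from a mean of 61464 to 32387. Others fell further, such as Col1a1 from 111181 to 3709 and Pdgfra from 20844 to 216. Pdpn was at 3 counts or fewer in every library of both groups, and Fap, Thy1 and Prg4 in every TNF-α+EMO library. With TNF-α these were low too, at 27 to 42 counts for Fap, 3 to 7 for Thy1 and 3 to 4 for Prg4. Pdpn, Thy1 and Prg4 were too low to be tested. Of 5 macrophage markers 1 was higher and 1 lower, their sum ranged from 1199 to 1300 with TNF-α and from 734.4 to 803.7 with TNF-α+EMO, and the defining markers Ptprc and Adgre1 were at 3 counts or fewer in all libraries. The sum of 4 epithelial markers, nearly all from Krt8, ranged from 9942 to 10802 and from 1968 to 2304, and that of 2 endothelial markers stayed under 11. In bulk RNA, fewer cells of a type and less RNA per cell cannot be told apart, and the part of these differences in the results on the proteasome was not tested.

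The α ring moved little. Of 6 tested α subunits 3 rose, 1 fell and 2 were not called, with a median log2 fold change of 0.16. This median was 0.0576 without TNF-α replicate 1 and 0.0788 without TNF-α replicate 2. Psma7 had the highest change, with 2380, 2273 and 2450 normalized counts with TNF-α and 2815, 3047 and 3375 with TNF-α+EMO (log2 fold change 0.38, standard error or SE 0.07, adjusted p = 0.00066 by edgeR). The groups did not overlap, but the rise was a fold of 1.30. Psma6 rose by a log2 fold change of 0.36 and Psma2 by 0.20 (adjusted p = 0.00113 and 0.0189 by edgeR). The call of Psma2 was lost with library totals alone (adjusted p = 0.285), with upper-quartile scaling (0.058) and without TNF-α replicate 1 (0.359) or 2 (0.217), and its log2 fold change was −0.0361 with an offset for gene length in each library. Psma1 had 2184, 2178 and 2260 normalized counts with TNF-α and 2584, 2378 and 2212 with TNF-α+EMO. Its groups overlapped, and its log2 fold change of 0.12 was not called (adjusted p = 0.14). Psma5 stood at 1967 ± 38.5 and 1891 ± 43.9 normalized counts (SD, n = 3 each), with all TNF-α+EMO libraries below all TNF-α libraries, and was not called either (log2 fold change −0.06, adjusted p = 0.37 by edgeR).

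Psma4 (chromosome 8, 59532389 to 59539920 in Rnor_6.0) was the only α subunit called lower. It had 2298, 2267 and 2445 normalized counts with TNF-α and 1518, 1623 and 1607 with TNF-α+EMO (log2 fold change −0.56, SE 0.06, adjusted p = 7.1e-06). All 3 TNF-α+EMO libraries were low and close together. Its deposited length of 3909 bases is the longest of the core subunits, and the call was lost with the offset for gene length, which moved the log2 fold change of Psma4 to 0.03 and the median of all genes to 0.23. Psma3l had 2602, 2663 and 2828 normalized counts with TNF-α and 3313, 3016 and 2755 with TNF-α+EMO, with overlapping groups and a log2 fold change of 0.17 that was not called (adjusted p = 0.0603).

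The β ring rose in 6 of 7 tested subunits, with a median log2 fold change of 0.60. Psmb6 (chromosome 10, 57131386 to 57133637), which carries the caspase-like cutting site, rose most in the core. It had 1439, 1312 and 1502 normalized counts with TNF-α and 4353, 4418 and 6035 with TNF-α+EMO (log2 fold change 1.80, SE 0.13, adjusted p = 1.7e-06). The lowest TNF-α+EMO library was well above the highest TNF-α library, and replicate 3 was the highest of its group. Psmb6 was the only DEG among the 13 tested core subunits.

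The other catalytic subunits moved less. Psmb5, with the chymotrypsin-like site, had 1705, 1651 and 1845 normalized counts with TNF-α and 2268, 2525 and 3103 with TNF-α+EMO (log2 fold change 0.60, SE 0.11, adjusted p = 0.0004). The groups did not overlap, and replicate 3 was again the highest. Psmb7, with the trypsin-like site, had 1717, 1660 and 1839 normalized counts with TNF-α and 1482, 2084 and 1851 with TNF-α+EMO. Its TNF-α+EMO libraries lay on both sides of the TNF-α libraries, and its log2 fold change of 0.05 (SE 0.11) was not called (adjusted p = 0.66). Psmb7 overlaps Nek6 on the opposite strand. Since the strand setting of the counting is not given in the sources used here, reads in the stretch they share cannot be told apart. The structural subunits Psmb4, Psmb2, Psmb3 and Psmb1 rose by log2 fold changes of 0.80, 0.66, 0.60 and 0.26.

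The immunoproteasome subunits fell, while the constitutive subunits they replace rose or were not called. Psmb9, which replaces Psmb6, had 2414, 2467 and 2756 normalized counts with TNF-α and 274.4, 370.4 and 385.0 with TNF-α+EMO (log2 fold change −2.89, adjusted p = 3.5e-09). Psmb10, which replaces Psmb7, fell from a mean of 2453 ± 89.3 to one of 309.7 ± 19.5 (SD, n = 3 each, log2 fold change −2.99, adjusted p = 4.9e-11 by edgeR). Psmb8, which replaces Psmb5, fell from 1285 ± 18.8 to 740.2 ± 110 (log2 fold change −0.80, adjusted p = 2.3e-05). On the scale of counts per kilobase, the ratio of Psmb9 to Psmb6 was 0.791, 0.887 and 0.865 with TNF-α and 0.0297, 0.0395 and 0.0301 with TNF-α+EMO, 25.6 times lower. The ratio of Psmb10 to Psmb7 fell 8.09 times, from 2.41 ± 0.142 to 0.298 ± 0.0517, and that of Psmb8 to Psmb5 fell 2.64 times, from 0.314 ± 0.0141 to 0.119 ± 0.00352 (SD, n = 3 each). None of the 3 ratios overlapped between groups. The two-sided exact permutation test gave p = 0.1 for each, the smallest value that 3 libraries against 3 allow.

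**Figure D2:**
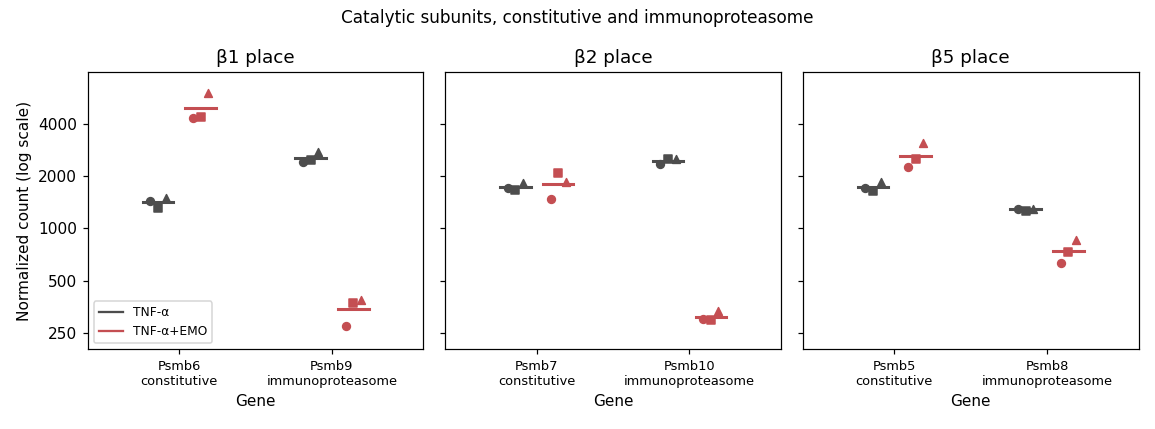
Normalized counts (vertical axis, log scale) of the constitutive and the immunoproteasome subunit at each of the 3 catalytic places of the β ring. Points are libraries, with 1 symbol shape per replicate, and bars are group means, in grey for TNF-α and red for TNF-α+EMO. Psmb6 and Psmb5 are higher and Psmb9, Psmb10 and Psmb8 lower in all 3 TNF-α+EMO libraries, while the groups overlap for Psmb7.

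In the base of the regulatory particle, 5 of the 6 ATPases rose, with a median log2 fold change of 0.46. Psmc4 rose most, from 2457, 2350 and 2535 normalized counts with TNF-α to 4337, 4722 and 4232 with TNF-α+EMO (log2 fold change 0.86, SE 0.06, adjusted p = 2.8e-07). Its groups were far apart. Psmc2, Psmc6 and Psmc1 rose by log2 fold changes of 0.62, 0.51 and 0.42. Psmc5 had 3106, 2910 and 3363 normalized counts with TNF-α and 3349, 3891 and 4044 with TNF-α+EMO, and was called (log2 fold change 0.27, adjusted p = 0.0115) although 1 library of each group overlapped. Psmc3 had 3837, 3655 and 3882 against 3682, 4099 and 4341, with a log2 fold change of 0.09 that was not called (adjusted p = 0.242).

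The 3 other base subunits that the name rule took in diverged, with a median log2 fold change of 0.13, the value of Psmd2. That rule leaves out the regulatory particle subunits Adrm1 and Sem1, so no class median or count here includes them. Adrm1, of the base, rose by a log2 fold change of 0.96 (adjusted p = 8.5e-07 by edgeR). For Sem1, of the lid, the log2 fold change was 0.56 and was not called (adjusted p = 0.0831 by edgeR). Psmd4 (chromosome 2, 196198038 to 196207560), a receptor that binds ubiquitin chains, had 1839, 1879 and 1926 normalized counts with TNF-α and 4535, 5061 and 5116 with TNF-α+EMO (log2 fold change 1.38, SE 0.07, adjusted p = 5.9e-09). The scaffold subunit Psmd2 had 6529, 6414 and 6664 against 7208, 7209 and 7045, a log2 fold change of 0.13 (adjusted p = 0.0398) whose call was lost in 10 of 15 alternatives. Without TNF-α replicate 1, 2 or 3 it was 0.0565, 0.044 and 0.0714. The other scaffold, Psmd1, had 4216, 4355 and 4554 against 4255, 3811 and 3795, with overlapping groups and a log2 fold change of −0.15 that was not called (adjusted p = 0.0583). It was called lower in 8 of 15 alternatives, DESeq2 included (adjusted p = 0.045), and turned to 0.24 with the offset for gene length. Per kilobase, the ratio of the ubiquitin receptor Psmd4 to the scaffold Psmd2 was 0.604 ± 0.0120 with TNF-α and 1.44 ± 0.106 with TNF-α+EMO (SD, n = 3 each). Psmd4 and Psmb4 are neighbours on chromosome 2, 152 kilobases apart, the closest pair of members that were both tested.

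The lid rose in 7 of 8 tested subunits, with a median log2 fold change of 0.51. Psmd8 (chromosome 1, 88116812 to 88123643) had the largest change of the 44 tested members. Its normalized counts were 1553, 1520 and 1620 with TNF-α and 6445, 6938 and 7309 with TNF-α+EMO (log2 fold change 2.14, SE 0.07, adjusted p = 2.3e-10), a fold of 4.41. The libraries within each group were close together, replicate 3 included. The next in the lid were Psmd6, Psmd11, Psmd12 and Psmd13, with log2 fold changes of 0.90, 0.69, 0.54 and 0.47, and Psmd7 and Psmd3 rose by 0.29 and 0.17.

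Psmd14, the deubiquitinase that strips ubiquitin from substrates entering the core, was the exception. It had 1430, 1422 and 1544 normalized counts with TNF-α and 1373, 1097 and 796.6 with TNF-α+EMO. The groups did not overlap, but the TNF-α+EMO libraries were spread widely, replicate 3 being lowest, and the log2 fold change of −0.43 (SE 0.18) was not called by edgeR (adjusted p = 0.0606). It was called lower in 7 of 15 alternatives, with adjusted p from 0.00176 without TNF-α+EMO replicate 1 to 0.0475 with upper-quartile scaling. Among these were DESeq2 (adjusted p = 0.00616) and the fit without TNF-α+EMO replicate 3, where the log2 fold change was −0.23 (adjusted p = 0.0243).

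The core and the regulatory particle moved by similar amounts. Of 13 tested core subunits 9 were called higher (69.2%), 1 lower and 3 neither, with a median log2 fold change of 0.36. Of 17 tested subunits of the regulatory particle 14 were called higher (82.4%), none lower and 3 neither, with a median of 0.47. Over all tested genes, 39.4% were called higher and 41.4% lower. The core minus regulatory difference of the medians was −0.11 on the log2 scale, and within the core the β ring exceeded the α ring. Leaving out TNF-α replicate 1 lowered the median of the core to 0.23. Leaving out TNF-α+EMO replicate 3 moved the difference between core and regulatory particle to −0.18, and an offset for gene length moved it to −0.34.

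In level, per kilobase of deposited gene length, both particles rose together. The mean over core subunits was 2352 ± 89.0 normalized counts per kilobase with TNF-α and 3480 ± 242 with TNF-α+EMO, and that over the regulatory particle 1604 ± 48.5 and 2385 ± 58.4 (SD, n = 3 each). The ratio of the core mean to the regulatory mean was 1.45, 1.47 and 1.48 with TNF-α and 1.42, 1.40 and 1.56 with TNF-α+EMO. The groups overlapped, with replicate 3 as the highest, and the group means had a ratio of 0.995. With medians over subunits in place of means, the ratio went from 1.61 ± 0.0608 to 1.40 ± 0.0756, 0.872 times. In this form the groups did not overlap, at 1.55 to 1.67 with TNF-α and 1.34 to 1.49 with TNF-α+EMO. Whether the ratio differed between groups thus depended on the summary used. With means again, leaving out the most changed subunit of each particle, Psmb6 and Psmd8, gave 1.45 ± 0.0158 and 1.42 ± 0.0586. Within the core, the ratio of the β to the α ring was 1.33, 1.26 and 1.30 with TNF-α and 1.75, 1.86 and 2.19 with TNF-α+EMO, which did not overlap.

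**Figure D3:**
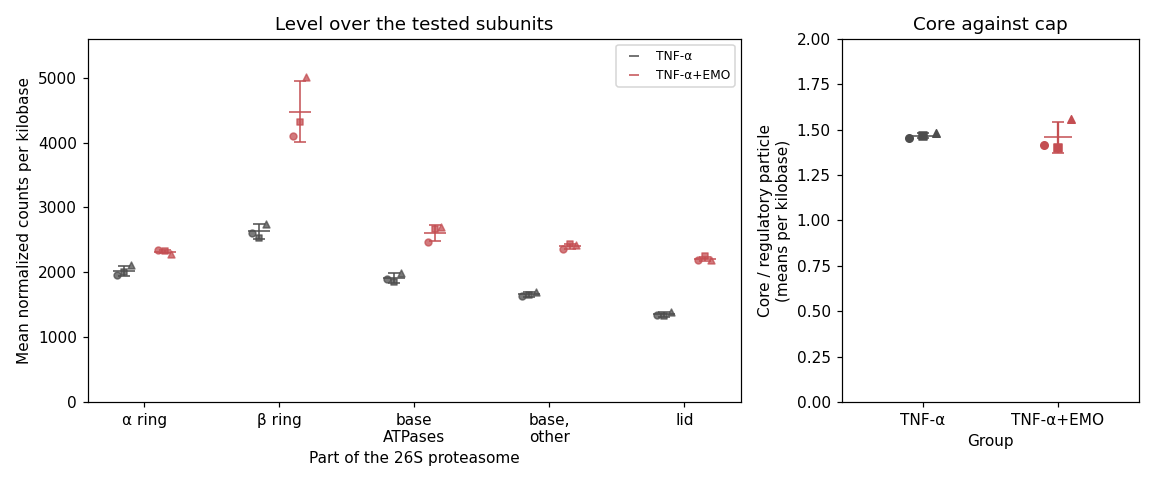
Left, mean normalized counts per kilobase of gene length (vertical axis) over the tested subunits of each part of the proteasome (horizontal axis), and right, the ratio of the core to the regulatory particle mean in each library. Points are libraries with 1 symbol shape per replicate, and bars are group means with SD (n = 3), in grey for TNF-α and red for TNF-α+EMO. The β ring goes from 2631 to 4475 and the α ring from 2026 to 2320, while the ratio of the core mean to the cap mean overlaps between groups.

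Levels per kilobase were less even over the core and over the regulatory particle with EMO, a description with no test. Over the 13 core subunits the coefficient of variation of the group means per kilobase was 41.8% with TNF-α and 58.6% with TNF-α+EMO, and over the 17 of the regulatory particle 37.0% and 43.5%. It went the other way in the ATPases (32.1% and 31.1%) and in the 4 tested caps and inhibitor (111% and 41.9%). The highest of these 30 subunits was Psmb3 in the TNF-α group, with 3996 normalized counts per kilobase, and Psmb6 in the TNF-α+EMO group, with 6883. Psmb6 went from place 15 to place 1 in the order, Psmd8 from 25 to 4 and Psmd4 from 22 to 7. Psma4 was lowest in both groups, at 598 and 405, a level that rests on its long deposited length. Of the 29 pairs of neighbours in this order, 10 were apart over all their libraries in the TNF-α group and 8 in the TNF-α+EMO group, and the other neighbours overlapped.

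The assembly factors, chaperones that join the subunits and leave the finished particle, had the highest median, 0.94. Of 7 tested, 5 rose, 1 fell and 1 was not called. Psmg1, Psmg2, Psmg3 and Psmg4, which help to build the α ring, all rose, and Psmg4 rose most, from 462.0, 486.6 and 491.0 normalized counts to 1095, 1162 and 1546 (log2 fold change 1.40, SE 0.12, adjusted p = 1.5e-06). Psmg2 had 416.9, 404.7 and 429.6 with TNF-α and 859.2, 880.0 and 843.4 with TNF-α+EMO, a log2 fold change of 1.05 (adjusted p = 2.1e-07) that fell under 1 with library totals alone, with the offset for gene length and without any 1 of the TNF-α libraries. Psmg3 and Psmg1 rose by log2 fold changes of 0.94 and 0.63. The ring their products help to build, the α ring, had a smaller median than the β ring.

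The chaperones of the base went different ways. Psmd9 had 535.6, 536.3 and 609.8 normalized counts with TNF-α and 1004, 1240 and 1408 with TNF-α+EMO (log2 fold change 1.12, SE 0.12, adjusted p = 6.8e-06). With the offset for gene length Psmd9 was no longer a DEG, while Psmd11 of the lid became one. Psmd5 fell, from 922.0, 985.9 and 1047 to 715.8, 791.0 and 772.1 (log2 fold change −0.37, adjusted p = 0.00122), with no overlap between the groups. Psmd10, also called gankyrin, was low, with 55.9, 62.4 and 65.3 normalized counts with TNF-α and 46.4, 40.9 and 59.1 with TNF-α+EMO, and its log2 fold change of −0.33 was not called (adjusted p = 0.215).

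Among the alternative caps, the members of one activator family went different ways. Psme2 (chromosome 15, 34265557 to 34269851), a subunit of the activator that interferon induces together with the immunoproteasome, had 4715, 4505 and 4849 normalized counts with TNF-α and 1459, 1757 and 1983 with TNF-α+EMO (log2 fold change −1.44, SE 0.10, adjusted p = 1.9e-07). It was the only member that was a DEG in the lower direction, and it moved the same way as Psmb8, Psmb9 and Psmb10. Its partner in that activator, Psme1, had 0, 0 and 1 counts with TNF-α and 0, 1 and 4 with TNF-α+EMO, so no fold is given. Psme1 overlaps Emc9, which had 4 to 80 counts, on the opposite strand. With its partner at 1459 to 4849 normalized counts, the counts of Psme1 are not read as its level of expression, since how its reads were annotated and counted was not tested.

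Psme3, which encodes the nuclear activator of the same family, moved the other way, from 1472, 1386 and 1318 to 3064, 3127 and 2846 normalized counts (log2 fold change 1.11, SE 0.07, adjusted p = 4.5e-08). Psme4, the large activator of the nucleus, had 3369, 3658 and 3404 against 3104, 2772 and 2461 and fell by a log2 fold change of −0.32 (adjusted p = 0.00407). Its deposited length of 7130 bases is the longest of the members, and with the offset for gene length its log2 fold change turned to 0.87. Psmf1, an inhibitor of the core, rose from 1017 ± 4.43 to 1780 ± 64.0 (SD, n = 3 each, log2 fold change 0.81).

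Of the genes outside the proteasome that the name rule took in, Psmc3ip, which encodes a recombination factor that bound an ATPase subunit, rose from 419.8, 447.6 and 402.3 to 1076, 1203 and 1265 normalized counts (log2 fold change 1.48, SE 0.09, adjusted p = 4.1e-08). It overlaps Mlx, which had 1182 to 2862 counts on the opposite strand. Without the strand setting, reads in the shared stretch cannot be told apart, and the extent of that stretch was not measured. Psme3ip1 rose by a log2 fold change of 0.62.

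Gene length moved with these differences. Across the 44 tested members, log2 length and the difference between TNF-α+EMO replicates 3 and 1 had a Pearson's r of −0.50 and a Spearman's rho of −0.52. Over the 10277 genes with a mean of at least 100 counts, r was −0.30. For the log2 ratio of the group means, r with log2 length was −0.33 over the members and −0.21 over those genes. Genes are not independent replicates, and the points of a panel share the same libraries. As every TNF-α+EMO library is of 1 treatment, a length-dependent difference of library preparation and one of treatment cannot be told apart.

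**Figure D4:**
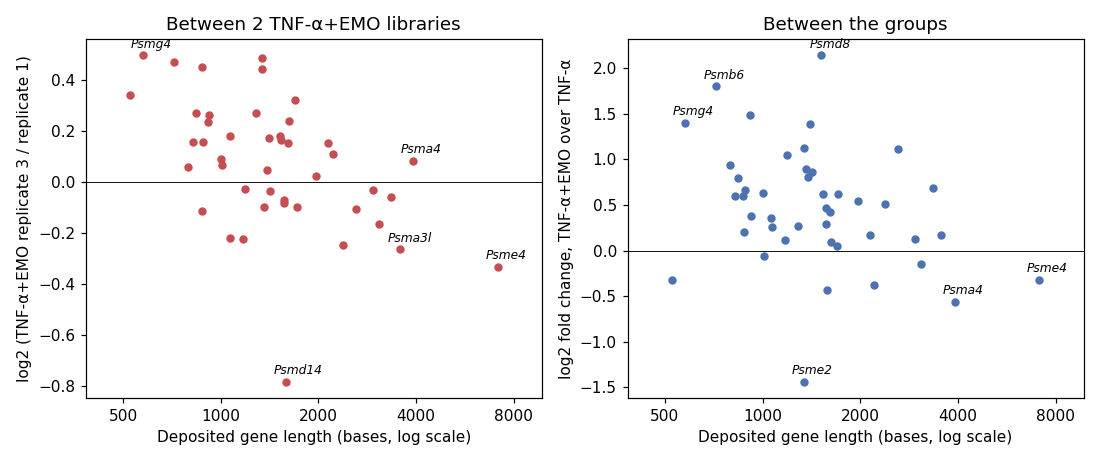
Log2 ratio of TNF-α+EMO replicate 3 to replicate 1 (left, vertical axis) and log2 fold change of TNF-α+EMO over TNF-α (right, vertical axis) against deposited gene length in bases (horizontal axes, log scale). Each point is 1 of the 44 tested members. Shorter genes tend to be higher in replicate 3 (r = −0.50), and r with length is −0.33 between the groups.

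Most genes of a list that work beside these members were also higher. It held 34 genes of the table for ubiquitin, its shuttles, proteasome partners, the immunoproteasome and transcription factors. Of these 34, 23 were called higher, 6 lower and 5 neither, with a median log2 fold change of 0.61, and 12 were DEGs higher and 3 lower. Over all tested genes, 39.4% were called higher and 41.4% lower, and 19.5% and 27.8% were DEGs. Both genes named Rps27a, which encode ubiquitin joined to a ribosomal protein, rose as DEGs, with log2 fold changes of 1.21 and 1.42. Genes of this kind have near-identical copies, so their counts are uncertain. Ubb, a polyubiquitin gene, went from 8714 ± 1390 to 28132 ± 2220 normalized counts (SD, n = 3 each, log2 fold change 1.69, adjusted p = 6.1e-07 by edgeR).

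Akirin2, whose product carries proteasomes into the nucleus, rose by a log2 fold change of 1.54 (539.6 ± 32.2 to 1572 ± 80.3, SD, n = 3 each, adjusted p = 9.9e-09 by edgeR). Zfand5, Txnl1 and Uchl5, which encode proteins that bind the proteasome, rose by 1.46, 1.39 and 1.17. Nsfl1c and Ufd1, cofactors of the segregase that pulls ubiquitinated proteins apart, rose by 1.29 and 1.00, and the shuttle Rad23b by 1.01. Another shuttle, Ubqln2, fell by 1.19 on the log2 scale (adjusted p = 3.9e-07). Nfe2l1, the transcription factor named above, rose from 6033 ± 81.1 to 9168 ± 622 normalized counts (SD, n = 3 each, log2 fold change 0.60, SE 0.06, adjusted p = 4.4e-06 by edgeR). Nfe2l2, whose product binds the same element, rose by 0.44 (adjusted p = 1.2e-04 by edgeR). These are RNA levels, and whether either factor acted on the members was not tested.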

How the data were processed

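RNA of 6 libraries of rat RA-FLS was sequenced after poly(A) selection with paired ends. The submitters' processing notes name FastQC, Trimmomatic, HISAT2 and the build Rnor_6.0. The counting program, annotation version and strand setting are not given in the sources used here. The authors deposited raw counts per gene, gene length (other values) and FPKM per library. The deposited FPKM values served only for the ratio of core to regulatory particle, where they give the value of the counts by construction. The deposited group means, log2 fold changes and p-values of the authors' own comparison were not used.

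Genes that reached 10 counts in 3 or more libraries were fitted with edgeR 4.0.16 in R 4.3.3 (TMM, robust quasi-likelihood test, Benjamini-Hochberg adjustment over 13614 genes). The fit was tested on simulated data in which few genes changed, unlike in these data, so that test cannot check the scaling used here. Normalized counts are scaled to the mean effective library size. A call is an adjusted p under 0.05, and a DEG also has an absolute log2 fold change over 1. Totals of 16813322 to 17794455 counts set the precision, with a floor of 3 counts. Genes named are the highest and lowest of each class, the catalytic subunits, those whose groups overlap, those against their class, and DEGs. In the list of partner genes, DEGs, Nfe2l1, Nfe2l2, Adrm1, Sem1 and the immunoproteasome are named. The values of some genes of that list are not reported here. The members and lists were chosen with earlier results of these data known. Alternatives were other scalings, filters and thresholds, DESeq2 1.42.0, the replicate block and leaving out each library. An offset for gene length and Psma3l counted in the α ring were chosen after seeing the data. No comparison between other groups was made.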

Additional observations from a re-analysis of the deposited data

How the results depend on the processing

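The 32 higher and 4 lower calls were 31 and 6 with DESeq2. With library totals alone, which moved the median of all genes from −0.01 to −0.12 (log2), 7 members were called lower, and the class medians were 0.0464 for the α ring, 0.49 for the β ring, 0.35 for the ATPases, 0.0169 for the other base subunits, 0.39 for the lid, 0.825 for the assembly factors, 0.13 for the caps, 0.24 for the core and 0.36 for the regulatory particle. Psmb7 (−0.0595) and Psmc3 (−0.0224), not called in either case, changed sign with it. The offset for gene length, chosen after seeing the data, moved the median of all genes to 0.23. With it the medians were −0.00095 for the α ring, 0.35 for the β ring, 0.49 for the other base subunits, 0.65 for the assembly factors, 0.79 for the caps and 0.15 for the core, the core minus regulatory difference was −0.34, and Psma1 (−0.0350), Psma2 (−0.0361), Psma4 (0.0331), Psmd1 (0.24) and Psme4 (0.87) changed sign. Without a filter the median of the caps was 0.80, since Psme1 entered. Medians over subunits gave 0.872 for the change in the ratio of core to regulatory level. Psma3l counted in the α ring gave −0.16 for the core minus regulatory difference. With absolute log2 fold change over 0.5, DEG members were 22 higher and 2 lower, and over 2, 1 and 0. In the part of the promoter window nearest the start, CCAAT was in 13 members and TATAAA in 0.

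Leaving out each library in turn gave medians of 0.0576 to 0.221 for the α ring, 0.044 to 0.162 for the other base subunits, 0.41 to 0.54 for the lid, 0.841 to 0.975 for the assembly factors, 0.16 to 0.30 for the caps and 0.23 to 0.36 for the core, and a core minus regulatory difference of −0.18 to −0.0888. The median of the caps was lowest without TNF-α replicate 1. Log2 fold changes ranged from −0.0504 to 0.201 for Psmb7 and from −0.00666 to 0.177 for Psmc3. Calls of Psma2, Psmb1, Psmc5, Psmd2 and Psmd3 were lost without TNF-α replicate 1 or 2. Of 660 values of single members under the alternatives, 597 kept direction and call, 29 lost and 23 gained a call, and 11 changed sign. The cause was not tested.

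Libraries with the same replicate number had correlations of −0.05, 0.02 and 0.12, so the numbers were not treated as pairs. With the replicate block, 31 members were called higher and 5 lower, and over all genes 5266 and 5540 in place of 5366 and 5642.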
